A study of Mus musculus with 3 samples.

Results

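Transcripts of 10 integrin alpha chain genes were measured in mouse regulatory T cells by polyA plus RNA-seq. The genes were Itga1, Itga2, Itga4, Itga5, Itga6, Itgae, Itgal, Itgam, Itgav and Itgax, taken by gene symbol from a deposited count table of 22457 gene identifiers, and all 10 were found. The mouse has 8 further alpha chain genes in that table and 8 beta chain genes, which are used below for comparison. The cells were primary regulatory T cells of adult mice aged 4 months, with an origin in haematopoietic cells of the bone marrow according to the labels. The labels used here name no genotype, treatment or sort, and do not say how many animals gave the cells. There was 1 group of 3 libraries, numbered as technical replicates 1, 2 and 3 of biological replicate 1, so that no conditions were compared. Every SD and p-value below therefore refers to differences between these libraries (n = 3), which may be technical. None can be read as the spread between animals.

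Integrins are adhesion receptors made of 1 alpha and 1 beta chain, both of which cross the membrane. The alpha chain decides much of what the receptor binds, and some alpha chains carry an inserted I domain that holds the ligand. Signals from inside the cell, passed on by talin and kindlin at the short cytoplasmic tails, switch the receptor from a bent, weakly binding form to an extended one. Regulatory T cells, like other T cells, use integrins to leave the blood, to stay in tissues and to hold on to antigen presenting cells.

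Libraries 1, 2 and 3 summed to 3206781, 3228215 and 2872350 gene counts. The level of a gene in a library is its count per 1000000 counts of that library (CPM), and levels of different genes are compared as CPM per kb of coding sequence, called CPM per coding kb here. A level of 3 counts, the floor used for detection, equalled 0.936, 0.929 and 1.04 CPM in the order of the libraries. The intervals given below and the floor take in nothing beyond counting error. Intervals of the highest over the lowest library also take no account of these libraries being picked by the same counts. Markers of the labelled cell type were looked at first. All 5 regulatory T cell markers (Foxp3, Il2ra, Ctla4, Ikzf2, Tnfrsf18) and all 7 T cell markers reached 1 CPM in every library. Presence at 1 CPM does not separate cell types, since all 6 B cell markers and both CD8 markers reached it too. Median levels were 387 CPM per coding kb for the regulatory T cell and 659 for the T cell markers. They were 47.8 for B cell, 63.2 for plasma cell and 25.6 for CD8 markers. Summed markers of other cells differed between the libraries. Erythroid markers summed to 8.11, 172 and 148 CPM in libraries 1, 2 and 3, plasma cell markers to 38.4, 449 and 112 CPM, and B cell markers to 235, 297 and 390 CPM.

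Itgal, Itga4 and Itgae stood between 132 and 238 CPM per coding kb and the other 7 members between 0.247 and 34.9. The summed level of the 10 genes was 706, 605 and 609 CPM per coding kb in libraries 1, 2 and 3 (640.0 ± 57.4, SD), and Itgal, Itga4 and Itgae held 90.4% ± 0.842 (SD) of it. Together the members took 0.217% ± 0.0199 (SD) of all counts. Their median was 9.64 CPM per coding kb, beside 1.44 over all 21784 genes with a coding sequence and 31.6 over the 10784 of these that reached 1 CPM in every library. In bulk RNA, fewer cells that carry a transcript and less of it per cell cannot be told apart.

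**Figure D1:**
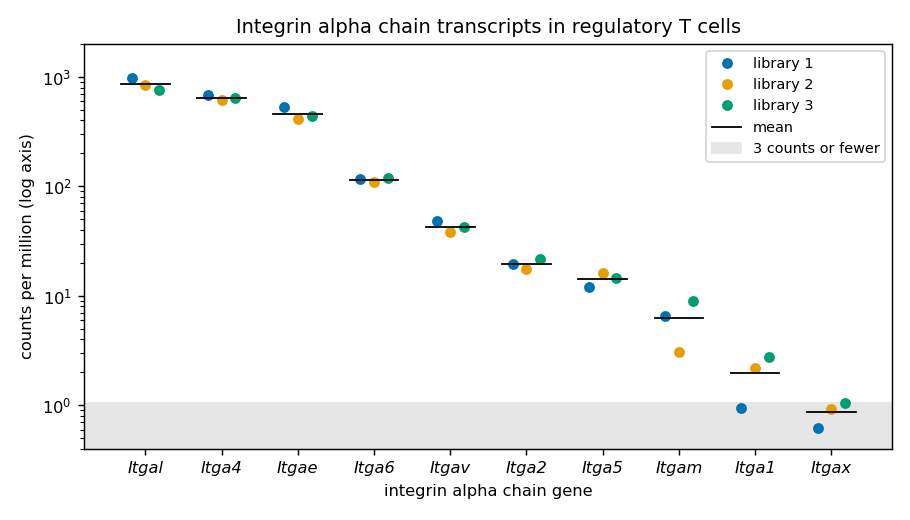
CPM (log axis, not corrected for gene length) of the 10 integrin alpha chain genes in the 3 libraries, with the mean as a line and a grey band for 3 counts or fewer. Itgal, Itga4 and Itgae lie between 412 and 973 CPM in every library, while Itgax stays in the band in all 3 and Itga1 in library 1.

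The order by CPM per coding kb was Itgal, Itga4, Itgae, Itga6, Itgav, Itga2, Itga5, Itgam, Itga1, Itgax. Of the neighbours in this order, Itgal and Itga4, Itga2 and Itga5, and Itga1 and Itgax had library ranges that overlapped, so that these pairs did not differ beyond their spread between libraries. Within a library, Itgal was above Itga4 and Itga1 above Itgax in 3 of 3 and Itga2 above Itga5 in 2 of 3. The other 6 steps separated the ranges, with ratios of 1.57 from Itga4 to Itgae, 3.79 from Itgae to Itga6, 2.55 from Itga6 to Itgav, 2.47 from Itgav to Itga2, 2.54 from Itga5 to Itgam and 3.21 from Itgam to Itga1. The length used matters for Itga4. Divided by all annotated exon bases instead of coding bases, its level was 46.1 ± 2.59 CPM per kb (SD), below Itgae at 101 ± 13.97 (SD), and only 4 of the 10 members kept their place.

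All members encode the GFFKR motif, the stretch of the cytoplasmic tail next to the membrane by which alpha and beta tails hold each other and which inhibitors such as sharpin contact. The stretch is shown for the leading genes (Itgal, Itga4, Itgae), for Itgam and Itgax as leukocyte chains at the lower end, and for the non-member Itgad, whose sequence is close to that of Itgax. Capitals mark the 15 bases that encode the motif and lower case the coding bases that follow, 5′ to 3′ on the coding strand, from the principal transcripts of GENCODE M21 (GRCm38).
Itgal: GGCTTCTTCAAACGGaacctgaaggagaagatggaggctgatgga
Itga4: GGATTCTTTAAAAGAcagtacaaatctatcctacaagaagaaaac
Itgae: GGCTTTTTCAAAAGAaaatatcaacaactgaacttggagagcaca
Itgam: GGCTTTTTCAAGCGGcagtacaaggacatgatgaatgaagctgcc
Itgax: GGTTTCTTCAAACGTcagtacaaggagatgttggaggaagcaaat
Itgad: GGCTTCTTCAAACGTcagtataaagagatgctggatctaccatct
The capitals lie at chr7:127333455-127333469 (plus strand, exon 31) for Itgal, chr2:79326523-79326537 (plus strand, exon 28) for Itga4 and chr11:73147054-73147068 (plus strand, exon 31) for Itgae. Those of Itgam, Itgax and Itgad lie at chr7:128117309-128117323 (exon 30), chr7:128150102-128150116 (exon 30) and chr7:128205065-128205079 (exon 31), all on the plus strand. Across the 10 members, 9 of the 15 bases were identical in every gene, although no 2 members shared the whole 15-base sequence. Past the motif the likeness differed from pair to pair. Over the 45 bases shown, which include the 15 of the motif, Itgax matched Itgad at 35 and Itgam at 33. Itgal matched Itgam at 29, Itga4 at 20 and Itgae at 21. In the motif alone, Itgax matched Itgam at 11 of 15 bases and Itgal matched Itga4 at 11. Of the 8 other alpha chains 4 encode GFFKR (Itga2b, Itga3, Itga7, Itgad).

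Itgal encodes CD11a, the alpha chain of LFA-1, which pairs with beta2 and binds ICAM proteins on antigen presenting cells and endothelium. The gene (ENSMUSG00000030830.14) lies on chromosome 7 at 127296260 to 127335138 on the plus strand. Libraries 1, 2 and 3 held 3119, 2700 and 2196 counts of Itgal, which is 269.9, 232 and 212 CPM per coding kb (238 ± 29.3, SD). Library 1 was the highest and library 3 the lowest. The ratio of library 1 to library 3 was 1.28 (95% exact interval 1.21 to 1.35) and exceeded counting error (adjusted p = 1.71e-17, chi-square test of the 3 counts against Poisson expectation). Itgal ranked 721 among the 21784 genes by CPM per coding kb and held 37.2% ± 1.99 (SD) of the members' summed level.

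Itga4 encodes CD49d, which pairs with beta1 as VLA-4, a receptor for VCAM-1 and fibronectin, and with beta7 as a homing receptor for MAdCAM-1 in the gut. The gene (ENSMUSG00000027009.14) spans 79255426 to 79333123 on the plus strand of chromosome 2. Counts of Itga4 were 2194, 1978 and 1832 in libraries 1, 2 and 3, and its level 221, 198 and 206 CPM per coding kb (208 ± 11.7, SD). Here too library 1 was highest, by 1.15 fold over library 2 (95% exact interval 1.08 to 1.22, chi-square test adjusted p = 6.86e-04). Exons of Cerkl on the opposite strand overlap those of Itga4 over 1124 bases, and Cerkl had 175, 228 and 141 counts. The strand setting of the counting is not given in the sources used here, so reads in that overlap cannot be assigned.

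Itgae encodes CD103, which pairs with beta7 and binds E-cadherin on epithelium, and it marks many tissue and effector regulatory T cells. The gene (ENSMUSG00000005947.7) lies on chromosome 11 at 73090583 to 73147446 on the plus strand. Counts of Itgae were 1715, 1329 and 1272, or 153, 118 and 126 CPM per coding kb (132 ± 18.3, SD). Library 1 stood above the other two, by 1.33 fold over library 2 (95% exact interval 1.24 to 1.43, chi-square test adjusted p = 4.08e-13). Dendritic cells and CD8 T cells also carry CD103. Summed dendritic cell markers, of which 3 of 7 reached 1 CPM in every library and none was at 0 in all of them, were 107, 145 and 225 CPM in libraries 1, 2 and 3. Most of this sum was H2-Aa, an MHC class II gene that B cells also carry, at 97.6, 134 and 209 CPM. Other genes of the list went otherwise, with 8, 1 and 3 counts of Xcr1 and 10, 19 and 4 of Zbtb46. The 2 CD8 markers, both above 1 CPM in every library, summed to 27.8, 34.4 and 39.0 CPM. Both sums were lowest in library 1, where Itgae was highest, and the part of these cells in the Itgae counts was not tested. Haspin, a gene inside Itgae on the opposite strand with no shared exon bases, had 97, 90 and 68 counts.

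Next in level came a laminin receptor chain and a chain of RGD-binding receptors. Itga6 encodes CD49f, which binds laminin with beta1 or beta4 (ENSMUSG00000027111.11, chromosome 2, 71745616 to 71858416, plus strand). It had 371, 351 and 340 counts, a level of 35.3, 33.2 and 36.2 CPM per coding kb (34.9 ± 1.52, SD). The libraries could not be told apart for Itga6 (highest over lowest 1.11, 95% exact interval 0.957 to 1.30, chi-square test adjusted p = 0.469). Itgav encodes CD51, which binds RGD sequences in vitronectin and fibronectin and, with beta6 or beta8, in latent TGF-beta (ENSMUSG00000027087.7, chromosome 2, 83724397 to 83806916, plus strand). Its counts were 155, 124 and 121, a level of 15.4, 12.3 and 13.5 CPM per coding kb (13.7 ± 1.601, SD). Library 1 was again highest, but the difference did not pass (1.29 fold, 95% exact interval 1.01 to 1.65, chi-square test adjusted p = 0.213). The M21 gene model Gm13684 on the opposite strand overlaps 634 exon bases of Itgav and has no row in the count table. With the strand setting not given, reads in that overlap cannot be assigned.

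Below them came Itga2 and Itga5. Itga2 encodes CD49b, a collagen receptor chain (ENSMUSG00000015533.8, chromosome 13, 114833081 to 114932100, minus strand), with 63, 57 and 62 counts and 5.56, 4.996 and 6.11 CPM per coding kb (5.55 ± 0.556, SD). Itga5 encodes CD49e, the chain of the classical fibronectin receptor (ENSMUSG00000000555.6, chromosome 15, 103344286 to 103366763, minus strand), with 39, 52 and 42 counts and 3.85, 5.10 and 4.63 CPM per coding kb (4.53 ± 0.631, SD). Counting error covered the differences between the libraries for both (chi-square test, adjusted p = 0.612 for Itga2 and 0.614 for Itga5). At these counts the intervals are wide, and a ratio of highest to lowest library up to 1.82 for Itga2 and 2.01 for Itga5 lies inside the 95% exact interval.

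Itgam, the CD11b chain of myeloid cells (ENSMUSG00000030786.14, chromosome 7, 128062640 to 128118491, plus strand), had 21, 10 and 26 counts. That is 1.87, 0.885 and 2.59 CPM per coding kb (1.78 ± 0.854, SD), and over the pooled libraries 6.12 CPM (95% exact Poisson interval 4.64 to 7.93). Library 2 was lowest and library 3 highest, by 2.99 fold (95% exact interval 1.39 to 6.95, chi-square test adjusted p = 0.0369). Of the 6 monocyte and macrophage markers 5 reached 1 CPM in every library, none was at 0 in all of them, and their summed level of 43.0, 32.2 and 63.4 CPM was also lowest in library 2 and highest in library 3. Csf1r, the receptor for the macrophage growth factor, had 50, 19 and 46 counts, and Cd68 37, 23 and 46. Lyz2 and Ly6c2 of the same list were lowest in library 1 instead, with 20, 29 and 38 and with 12, 17 and 19 counts. Natural killer cell markers summed to 34.6, 42.1 and 55.4 CPM (4 of 7 at 1 CPM in every library). Neutrophil markers summed to 1.56, 78.7 and 9.40 CPM, with none of 8 at 1 CPM in every library. Their sum was highest in library 2, where Itgam was lowest, and S100a8, S100a9, Ltf, Elane and Ly6g were at 0 in library 1. The part of these cells in the Itgam counts was not tested. The M21 gene model Gm49368 overlaps 3450 exon bases of Itgam, shares 97.9% of its 50-base coding stretches and has no row in the count table.

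The remaining members were near the detection floor. Itgax, the CD11c chain of dendritic cells (ENSMUSG00000030789.8, chromosome 7, 128129547 to 128150657, plus strand), had 2, 3 and 3 counts, at or under the floor in every library, and 0.860 CPM over the pooled libraries (95% exact Poisson interval 0.371 to 1.69). Of its 50-base coding stretches 11.1% also occur in Itgad, the neighbour whose tail is shown above, so that part of these few counts could belong to either gene. Itga1, the CD49a collagen receptor chain of tissue-resident T cells (ENSMUSG00000042284.9, chromosome 13, 114953096 to 115101964, minus strand), had 3, 7 and 8 counts and 1.93 CPM over the pooled libraries (95% exact Poisson interval 1.15 to 3.06). Pelo, inside Itga1 on the same strand with no shared exon bases, had 22, 17 and 18 counts. The M21 gene model Gm49395 on the same strand overlaps 685 exon bases of Itga1. It shares 5.73% of the 50-base coding stretches of Itga1 and has no row in the count table. Itga1 and Itgax had mean counts under 10 and were not tested between libraries.

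Grouped by partner, the alpha chains that pair with beta7 (Itga4 and Itgae) summed to 341 ± 29.95 CPM per coding kb (SD). Those that pair with beta1 (Itga1, Itga2, Itga4, Itga5, Itga6, Itgav) summed to 268 ± 13.7, and those that pair with beta2 (Itgal, Itgam, Itgax) to 240.1 ± 29.1 (SD for both). Itga4 counts in 2 of these sums. The 6 members with an I domain (Itgal, Itgae, Itga2, Itgam, Itga1, Itgax) held 59.0% ± 1.87 (SD) of the members' summed level, and Itga4, Itga6, Itgav and Itga5, which lack it, held 41.0%. These sums depend on the length used. Per kb of all exon bases the beta2 partners (132 ± 15.9 CPM per kb, SD) stood above the beta1 partners (68.6 ± 3.12), and the members with an I domain held 78.1% and those without it 21.9%.

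The 8 other alpha chain genes added little. They summed to 6.52 ± 0.563 CPM per coding kb (SD), and the 10 members held 99.0% of the level of all 18 alpha chains. Itga7, a laminin receptor chain, led them with 46, 25 and 27 counts (3.07 ± 1.00 CPM per coding kb, SD). Itga2b, the platelet chain, followed with 8, 18 and 7 counts, Itga3 with 10, 10 and 9, and Itgad with 5, 4 and 8. Counts were 4 or fewer in every library for Itga9 and Itga10 and 5 or fewer for Itga11, and Itga8 had none in any. A count of 0 for Itga8 allows up to 0.936, 0.929 and 1.04 CPM in libraries 1, 2 and 3. The 2 that could be tested, Itga7 and Itga2b, did not differ beyond counting error (chi-square test, adjusted p = 0.0704 and 0.161). Megakaryocyte markers, a list that includes Itga2b, summed to 2.49, 5.89 and 3.48 CPM, with Gp1bb at 0 in all libraries.

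The partner chains were abundant as well. Itgb2, the beta chain of LFA-1, had 3569, 3380 and 3065 counts (466 ± 14.6 CPM per coding kb, SD). Itgb7 had 2482, 3051 and 2347 counts (349.6 ± 36.8 CPM per coding kb, SD), and Itgb1, the most widely shared beta chain, 1219, 1305 and 907 (153 ± 19.1 CPM per coding kb, SD). All 3 differed from library to library by more than counting error (chi-square test, adjusted p = 0.00883 for Itgb2, 9.12e-09 for Itgb7 and 8.94e-06 for Itgb1). They were the 3 called of 5 beta chains tested, beside 27.6% of all genes tested. Of genes with a mean count of 300 or more, as these 3 had, 44.4% were called. Library 1 was highest for Itgb2, as for Itgal, but library 2 was highest for Itgb7 and Itgb1. Itgb8, which activates latent TGF-beta with Itgav, had 304, 291 and 247 counts (39.2 ± 1.91 CPM per coding kb, SD), and Itgb3, which forms the vitronectin receptor with Itgav, 131, 139 and 104 (17.0 ± 1.48 CPM per coding kb, SD), with no difference beyond counting error (chi-square test, adjusted p = 0.601 and 0.619). Itgb5 stood at 5, 4 and 4 counts, Itgb4 at 3, 2 and 0, and Itgb6 at 0, 1 and 0.

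**Figure D2:**
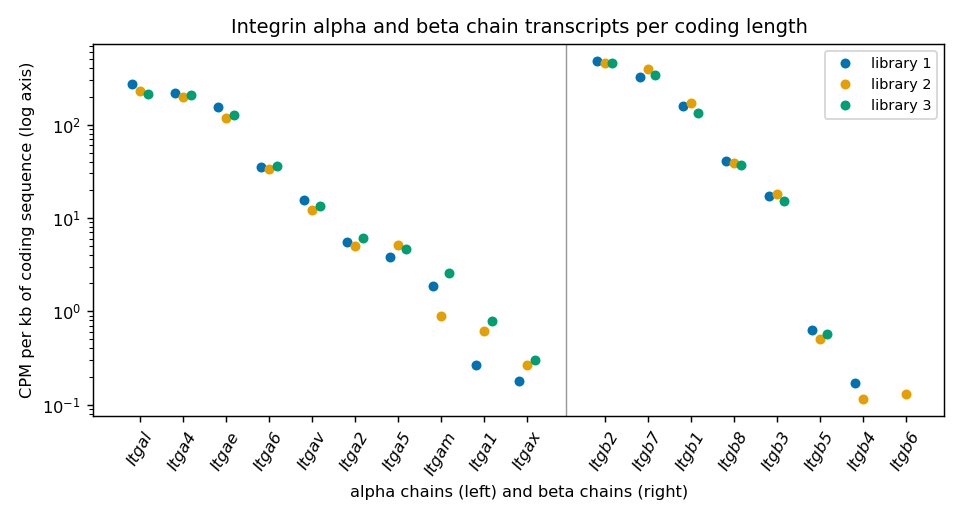
CPM per kb of coding sequence (log axis) of the 10 alpha chain members (left) and the 8 beta chains (right) in the 3 libraries, 1 point per library, with counts of 0 (Itgb4 in library 3, Itgb6 in libraries 1 and 3) not drawn. Itgb2 at 466 CPM per coding kb lies above Itgal at 238, and 3 alpha and 3 beta chains lie above 100 in every library.

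Within a library the alpha to beta ratio does not depend on the library size used for scaling. It can still depend on depth, since the libraries' count ratios shifted with counts per base of coding sequence, as given below. The ratio was taken for 11 pairs with beta1, beta2 or beta7, and in 10 of them the alpha chain had the lower level per coding kb. Pairs with other beta chains were not among these 11. Itga6 (34.9 CPM per coding kb) was above Itgb4 (0.0950), and Itgav (13.7) above Itgb6 (0.0437). Both Itgb4 and Itgb6 had 3 counts or fewer in every library, at or under the floor. Itgav was also above Itgb5 (0.571) but below Itgb8 (39.2) and Itgb3 (17.0). The log2 ratio of Itgal to Itgb2 was -0.84, -0.97 and -1.12 in libraries 1, 2 and 3 (-0.97 ± 0.14, SD). Itgae stood at -1.41 ± 0.33 against Itgb7 and Itga4 at -0.74 ± 0.23 (log2 ratios, SD). With all exon bases as length these were -1.60 for Itgae and -2.72 for Itga4, so that their order turned. For Itga4 against Itgb1 the log2 ratio was 0.48, 0.23 and 0.64 (0.45 ± 0.21, SD), the exception among the 11, and it turned to -0.96 when all exon bases were used as length. The remaining beta1 pairs were further apart. Log2 ratios to Itgb1 were -2.13 ± 0.24 for Itga6, -3.48 ± 0.26 for Itgav, -4.78 ± 0.33 for Itga2, -5.08 ± 0.27 for Itga5 and -8.24 ± 0.93 for Itga1 (SD for each). Against Itgb2, Itgam stood at -8.16 ± 0.77 (SD) and Itgax at -10.9 over the pooled counts (95% exact interval -12.1 to -9.91). All 18 alpha chains together reached 0.631 ± 0.0647 (SD) of the summed level per coding kb of the 8 beta chains, and 0.401 with all exon bases as length.

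Of the 10 members 8 had a mean count of at least 10 and could be tested between the libraries. The test called 4 of these 8, Itgal, Itga4, Itgae and Itgam, and it called 27.6% of the 10282 genes tested. Among them 3 were highest in library 1, a direction that 11.1% of the genes tested were called in. Calls depended on depth. Genes with a mean count of 300 or more were called in 44.4% of cases and those under 300 in 20.3%, and Itgal, Itga4, Itgae and Itga6 were the members with 300 or more. Under a negative binomial model that allows for extra spread between libraries (common dispersion 0.0157, by edgeR), none of the 8 was called, 1 (Itgam) had an unadjusted p under 0.05, and 0.904% of all genes were called. Without library 1, Itgam alone was called of the 8, beside 16.5% of all genes tested. Adjusted p for Itgal, Itga4 and Itgae was then 0.0924, 0.179 and 0.0752 (chi-square test). Without library 2, Itgae and Itgal were called, beside 9.38% of all genes tested. Itga4 and Itgam were not (chi-square test, adjusted p = 0.130 for Itga4 and 0.554 for Itgam). Without library 3, Itga4, Itgae and Itgal were called, beside 19.5% of all genes tested, and Itgam was not (chi-square test, adjusted p = 0.139).

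**Figure D3:**
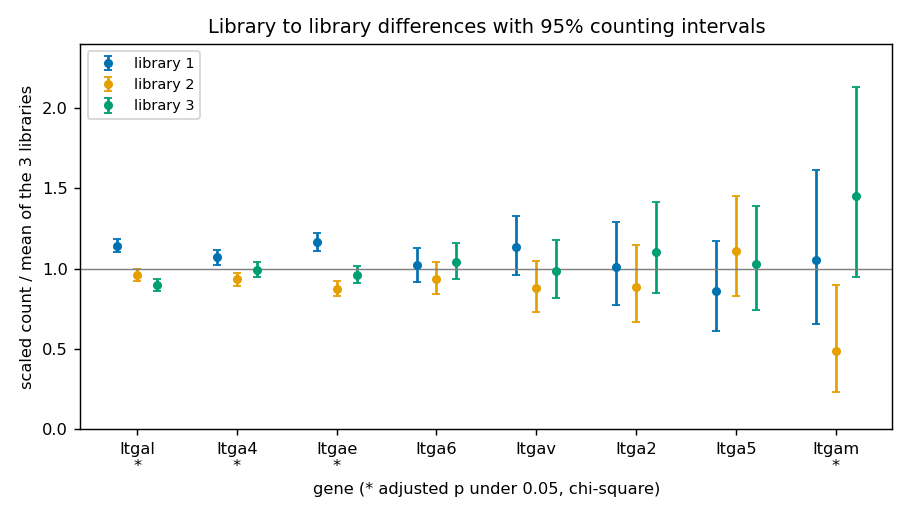
Scaled count of each tested alpha chain gene in each library relative to the mean of the 3 libraries (linear axis), with 95% exact Poisson intervals and an asterisk below genes called by the chi-square test. Library 1 lies above the other libraries for Itgal, Itga4 and Itgae, and the intervals of Itgam span more than those of any other gene shown.

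Counts were also set against the number of counts per base of coding sequence, since the libraries' ratios shifted with it. Without scaling, library 3 over library 1 had a median log2 ratio of -0.23 for genes under 0.05 counts per coding base, -0.11 from 0.5 to 1 and -0.03 from 1.6 upwards, while the totals gave -0.16. Itgal, at 0.742 counts per coding base, had a log2 ratio of -0.51 and Itga4, at 0.646, one of -0.26, both below the median of genes in their range. Itgae, at 0.411, had -0.43, where the median of its range was -0.17. Itga6 had -0.13 and Itgav -0.36, at medians of -0.19 and -0.23. When genes were scaled within 10 equal-sized bins of counts per coding base, Itgal, Itga4, Itgae and Itgam were again the members called, and 25.9% of all genes were.

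**Figure D4:**
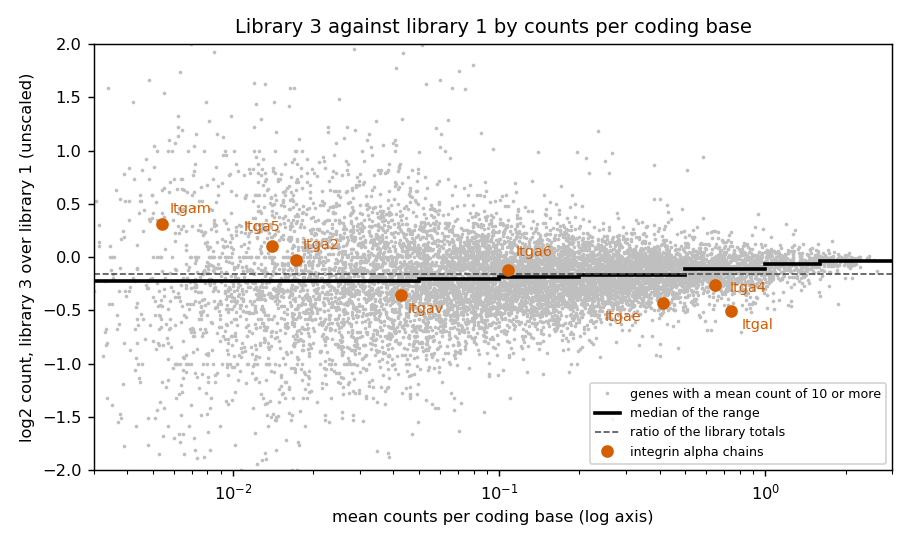
Unscaled log2 ratio of the counts in library 3 to library 1 against the mean counts per coding base (log axis) for genes with a mean count of 10 or more (grey, points outside the axes not shown), with the median of each range as a black line and the ratio of the library totals dashed. Itgal, Itga4 and Itgae lie below the black line, and the 8 tested alpha chains lie at 0.742 counts per coding base or less.

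The machinery that switches integrins on was present in its leukocyte forms. Among 13 activation genes, 10 were at 1 CPM or above throughout, and the 3 that did not were Tln2, Fermt1 and Fermt2, the talin and kindlin paralogues of other tissues, with 0 to 2 counts in a library. Skap1 (599 ± 24.6 CPM per coding kb, SD), Fyb (387 ± 13.4) and Fermt3 (342 ± 25.8) were highest. The first 2 are adaptors that link the T cell receptor to integrins, and Fermt3 encodes kindlin-3. The chi-square test called 8 of the 10 tested, beside 27.6% of all genes. Of genes with a mean count of 300 or more, as all tested here but Rap1a and Rap1b had, 44.4% were called. Rap1b, Rasgrp2, Rassf5, Skap1 and Fyb were highest in library 3 (chi-square test, adjusted p from 0.00376 to 0.0267), a direction in which 7.75% of all genes were called. Skap1 and Fyb had 1.86 and 1.20 counts per coding base. In their ranges the median log2 count ratio of library 3 to library 1 was -0.03 and -0.07, against -0.16 for the totals. The part of this shift in their calls was not tested. Talin-1 (Tln1, 1.20 fold, adjusted p = 8.86e-16 in the chi-square test) and Fermt3 were highest in library 2, a direction in which 8.71% of all genes were called, and the exchange factor gene Rasgrp1 in library 1 (1.31 fold). None of these ratios was above 1.43 between the highest and the lowest library. Rap1a and Apbb1ip were not called.

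Genes of the adhesion complex and genes that restrain integrins were also measured. Among 13 adhesion complex genes, 10 were at 1 CPM or above throughout, led by the kinase-like scaffold Ilk (177 ± 8.56 CPM per coding kb, SD), the actin crosslinker Actn4 (164 ± 20.5) and the kinase Ptk2b (143 ± 4.53). Parva and Parvb had no count in any library, whereas their leukocyte relative Parvg stood at 114 ± 9.98 CPM per coding kb (SD). Of 10 tested, Actn4 and Zyx were called, both highest in library 2 (1.24 and 1.20 fold, chi-square test adjusted p = 4.35e-07 and 0.00865), beside 27.6% of all genes called and 8.71% called and highest in that library. All 5 restraining genes reached 1 CPM in every library. The adaptor gene Dok2 stood at 309 ± 27.9 CPM per coding kb, filamin A (Flna), which competes with talin for beta tails, at 181 ± 8.33, and Sharpin, which binds alpha tails, at 154 ± 4.38 (SD). Dok2 and Flna, both highest in library 2, and Dok1, highest in library 1 by 1.44 fold, were called (chi-square test, adjusted p = 0.00661, 0.0214 and 1.64e-05), and Sharpin and Itgb1bp1 were not. These 3 of 5 stand beside 27.6% of all genes called, with 8.71% highest in library 2 and 11.1% in library 1. With a mean count of 300 or more, as these 3 had, 44.4% of genes were called.

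Ligands of these integrins were present mainly as ICAM transcripts. Of 14 ligand genes 6 reached 1 CPM in every library. Icam2 and Icam1, ligands of LFA-1, stood at 209 ± 32.8 and 126 ± 8.12 CPM per coding kb (SD), and Vcam1, the ligand of VLA-4, at 10.9 ± 1.31. Cdh1, the E-cadherin ligand of Itgae, had 4, 3 and 10 counts, and Madcam1, the gut ligand of Itga4 with beta7, 0, 8 and 1. Of 5 ligand genes tested 2 were called, beside 27.6% of all genes. Icam2 was lowest in library 1 (455, 615 and 539 counts, 142, 191 and 188 CPM). With TMM-scaled library sizes library 3 was its highest, at 1.32 fold over library 1 (chi-square test adjusted p = 8.44e-05). Tgfb1, whose latent form Itgav with beta8 binds, was highest in library 1 (40, 15 and 26 counts, 2.75 fold, chi-square test adjusted p = 0.0135).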

How the data were processed

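The deposited files hold whole-number counts per gene for each of 3 libraries. Per the file descriptions deposited by the authors, the counts refer to the mm10 assembly and GENCODE M4. How duplicates and strand were handled, and which aligner and counter were run, was not given in the sources used here. Symbols, positions, coding lengths (the longest coding sequence) and sequences came from GENCODE M21 on GRCm38, and 22195 of 22457 identifiers matched.

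CPM was computed from total counts. Libraries were compared per gene with Pearson's chi-square against Poisson expectation (2 degrees of freedom), with library sizes of totals times TMM factors (0.990, 1.02 and 0.993, edgeR 4.0.16 in R 4.3.3), a mean count of at least 10 and Benjamini-Hochberg adjustment over 10282 genes, called at 0.05. Ratios of highest to lowest library use the same sizes, with exact 95% intervals. The libraries of each ratio were picked by the same counts, which tends to raise the ratio. Its interval takes no account of that choice. With 1 group no comparison of conditions was made. Motif stretches were found by translating principal transcripts, and shared 50-base stretches were searched exactly, in the sense direction, among all M21 transcripts. Members and gene lists were chosen with earlier results of these data known. All members and all integrin genes are named, and of other lists the 3 highest members per coding kb and those called. Further genes were chosen after their values were seen (those named at or near 0, Rap1a, Apbb1ip, Parvg and Itgb1bp1). The alternatives tried were plain totals, size factors of DESeq2 1.42.0, scaling within 10 bins of counts per coding base, other count filters, a negative binomial model, a stricter threshold, other lengths and leaving out each library. Other software was pandas 2.3.3, scipy 1.17.1, numpy 2.4.6, Python 3.11.15 and matplotlib 3.10.9.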

Additional observations from a re-analysis of the deposited data

How the results depend on the processing

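Of all genes, 2836 were called by the chi-square test, 1700 at an adjusted p of 0.01, 93 under the negative binomial model, and 960 to 2014 when each library was left out. Members called were 4, against 0 under the negative binomial model and 1 to 3 when each library was left out (1 without library 1, 2 without library 2, 3 without library 3). Of all genes tested, 16.5%, 9.38% and 19.5% were called without libraries 1, 2 and 3. The number of members called stayed at 4 under DESeq2 size factors, plain totals and scaling within 10 bins of counts per coding base. Beside these, 27.6%, 27.9% and 25.9% of all genes tested were called. The number of members was 3, without Itgam, with no filter, with a mean count of at least 50 (where Itgam was not tested) and at an adjusted p of 0.01. There 17.7%, 33.2% and 16.5% of all genes tested were called. With all exon bases as length, 4 of 10 members kept their place in the order, the share of Itgal, Itga4 and Itgae was 92.0%, the share of Itga4 alone 15.3% instead of 32.6%, and the log2 ratio of Itga4 to Itgb1 reversed to -0.96. At 5 CPM in every library 1 of the 8 other alpha chains was present, against 4 at 1 CPM. For these changes the cause was not tested, apart from the filters and thresholds, which act by construction. Leaving out a library changed both the number of libraries and which ones remained, and the 2 were not told apart. Without libraries 1, 2 and 3 in turn, 1691, 960 and 2014 genes were called. Depth limits the low members, since at the 57 to 63 counts of Itga2 the 95% exact interval of its highest over its lowest library ran from 0.859 to 1.82.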
